A study of Xenopus laevis with 4 samples.

Results

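The splicing factors and hnRNPs were taken as every probe set that the platform annotation pairs with 1 gene symbol beginning with srsf, hnrnp, snrp, snrnp, sf3, prpf, u2af, lsm or rbm followed by a digit, esrp, rbfox or ptbp. The rule used names only and found 170 of the 15491 probe sets that are not controls. They stand for 118 of the 7531 gene symbols on the array and for 97 gene names, since the allotetraploid frog Xenopus laevis often keeps an L and an S copy (homeologs) of a gene. Both copies were present for 21 names. The signals come from 4 arrays, 1 for each tissue piece cut from embryos at stage 10, when gastrulation starts. The pieces were the animal cap (future ectoderm), the dorsal part of the marginal zone (home of the organizer), its ventral part (the other side of the mesodermal belt) and the vegetal explant (yolk-rich future endoderm). The labels give no strain, treatment or genotype and do not say how many embryos were pooled. Every value is therefore a single measurement, no test was possible, and all differences are differences between arrays. In bulk tissue, fewer cells of a type and less RNA per cell cannot be told apart.

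Splicing removes introns from nuclear transcripts in the spliceosome, which is built from the U1, U2, U4, U5 and U6 snRNPs, each a small nuclear RNA with its proteins. U1 marks the start of the intron and U2AF and U2 its end, after which the U4/U6.U5 tri-snRNP joins and the complex is activated. SR proteins generally favour the use of nearby splice sites, and hnRNPs, which coat nascent RNA, often oppose it, so that the balance of these and of tissue-restricted regulators such as ESRP, RBFOX and PTBP shapes which exons are kept. The early frog embryo starts with maternal stores of many of these RNAs, and gastrulation follows soon after its own genome becomes active.

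Of 6 marker lists of the embryo's regions, each had its highest summed signal in an explant whose label fits it, but several were also high in other explants. The summed signal of 12 ectoderm probe sets was 18410 in the animal cap, 9490 ventrally, 3032 dorsally and 1219 in the vegetal explant. The 11 endoderm probe sets summed to 34374 in the vegetal explant, 8155 dorsally, 5939 ventrally and 194 in the cap, where 6 of the 11 lay at or under the floor. The 4 germ plasm probe sets summed to 20780 in the vegetal explant and to between 176 and 597 elsewhere. The organizer list summed to 14955 dorsally but also to 7909 in the vegetal explant, against 576 ventrally and 261 in the cap. The list for the mesoderm ring summed to 13250 dorsally, 13016 ventrally, 11460 in the vegetal explant and 682 in the cap. This sum did not set the vegetal explant apart from the marginal zones. It rested largely on the brightest probe set of each array, at 7351 dorsally, 6574 ventrally and 7247 in the vegetal explant. The sum therefore says little about the other probe sets of the list. The ventral list summed to 6887 ventrally, 5267 in the vegetal explant, 2864 in the cap and 2827 dorsally.

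Signals are linear intensities as deposited. They were raised to a floor of 24.7, the 20th percentile of all values, before the log2 scale was used, and a probe set was counted in a comparison when its higher explant reached 147, the median of all values. Of the 170 probe sets, 156 (115 symbols) reached that level in at least 1 explant. The 14 others were dim everywhere and are not described further, apart from ptbp1.L and ptbp3.S below. For 3 symbols (ptbp3.S, rbm23.L and rbm24.L) no probe set reached it. None of the 156 lay at the floor in any explant, so no fold given for them is a bound. The lower side of a fold could still lie under 147.

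As a set, splicing factor and hnRNP RNAs had slightly but widely lower signals in the vegetal explant than in the other explants. The vegetal signal was the lowest of the 4 for 106 of 156 probe sets (67.9%), against 37.2% of all 8851 probe sets measured. It was the highest for 21 (13.5%), against 39.1% of all. The lowest signal lay in the animal cap for 20 (12.8%, against 25.3% of all), ventrally for 17 (10.9%, against 17.3%) and dorsally for 13 (8.33%, against 20%). With 1 value per symbol the vegetal explant was lowest for 77 of 115 genes, against 36.9% of all. The highest signals were spread over the animal cap (48 probe sets, 30.8% against 26% of all), the dorsal marginal zone (52, 33.3% against 17.2%) and its ventral counterpart (35, 22.4% against 17.6%).

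**Figure D1:**
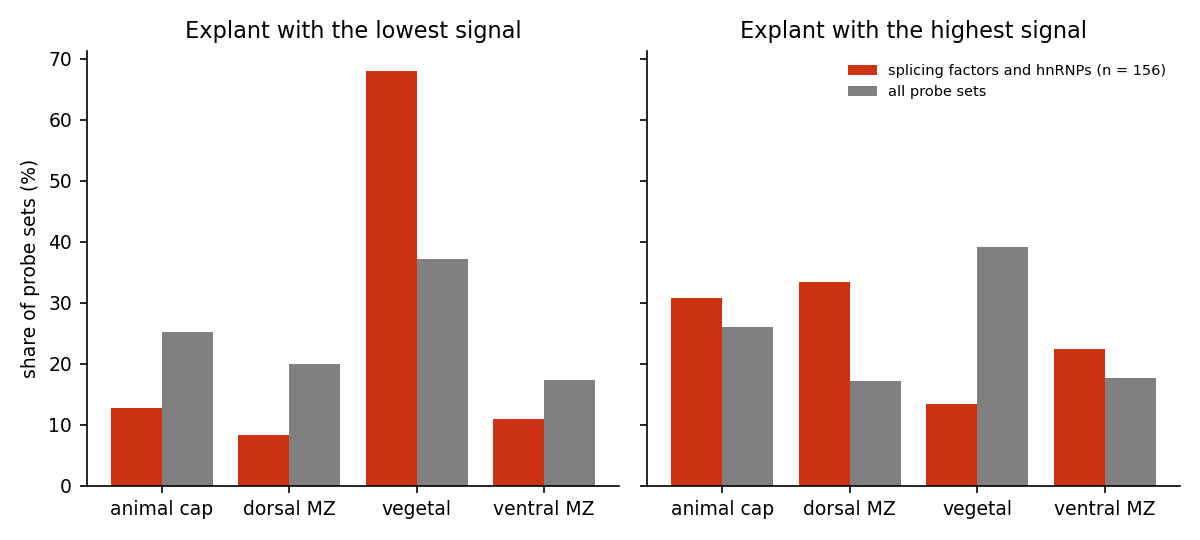
Share of probe sets (%, vertical axis) whose lowest (left) or highest (right) signal lay in each explant, for the 156 measured splicing factor and hnRNP probe sets (red) and for all 8851 measured probe sets (grey). The vegetal explant was lowest for 67.9% of the former and 37.2% of the latter. MZ stands for marginal zone.

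The typical size of this difference was small. The median log2 difference of the animal cap minus the vegetal explant was 0.24 over 156 probe sets and -0.01 over all 8614 measured, and the cap was the higher of both for 120 of the 156 (76.9%, against 49.3% of all). Against the dorsal marginal zone the vegetal explant had a median of -0.30 (all probe sets 0.02), and against the ventral marginal zone -0.21 (all 0.02). These comparisons share the vegetal array and are not independent of each other. Among the other explants the medians were near 0, with -0.02 for the cap minus the dorsal marginal zone, 0.04 for the cap minus the ventral marginal zone and 0.05 for the dorsal minus the ventral marginal zone. Centring on medians and scaling to the hybridisation controls shifted all probe sets of an array alike, which quantile normalization does not. After centring each array on its median, the cap minus vegetal medians were 0.44 for these genes and 0.21 for all, so that the gap between them moved from 0.25 to 0.23. With arrays scaled to the hybridisation controls the gap was 0.24 and after quantile normalization 0.19. None of these gaps, nor the 49.3% of all, was matched for brightness.

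These RNAs are mostly bright on the array, and brightness moved with the direction of the difference. With the measured probe sets split by mean level into 3 classes of equal size, in the brightest class the vegetal explant was lowest for 47.5% of all probe sets and for 75 of 105 splicing factor and hnRNP probe sets (71.4%). In the middle class these shares were 37.4% and 20 of 34 (58.8%), and in the dimmest 26.7% and 11 of 17 (64.7%). The higher share of these genes was thus seen at each level. The cap minus vegetal median of all probe sets fell from 0.099 in the brightest class to 0.009 and -0.28 in the others. For members it was 0.246, 0.158 and 0.288 in the same order (105, 33 and 18 probe sets). In the brightest class 83 of 105 members were higher in the cap (79.05%, against 59.37% of all). For most members the contrast with probe sets of like brightness was therefore smaller than the unmatched values.

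**Figure D2:**
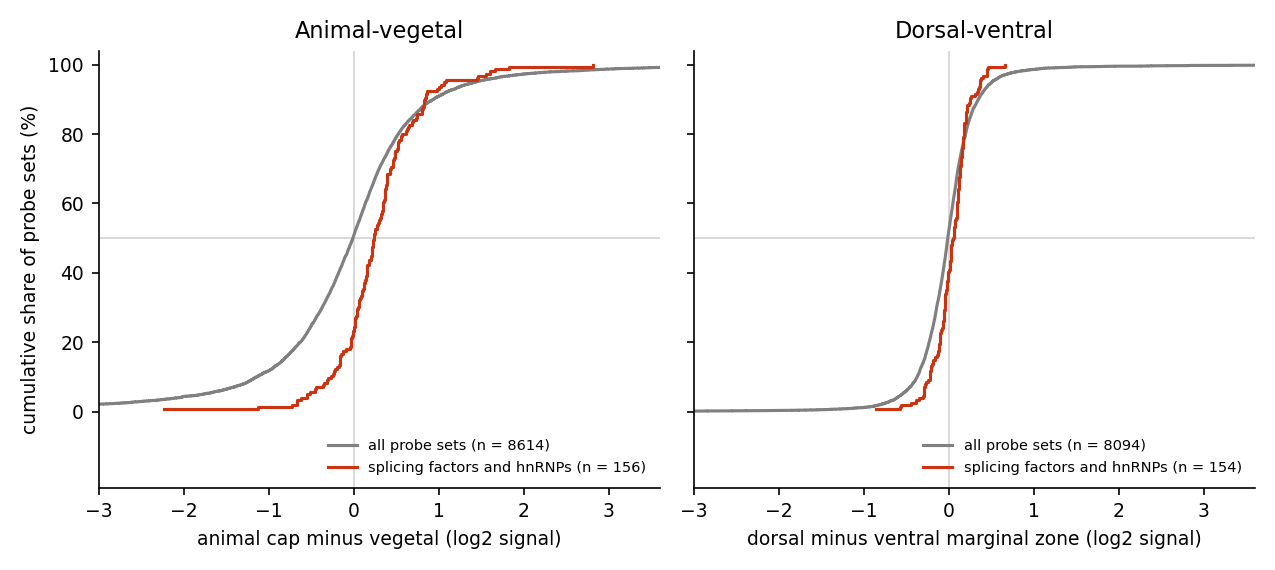
Cumulative share of probe sets (%, vertical axis) against the log2 difference of the animal cap minus the vegetal explant (left) and of the dorsal minus the ventral marginal zone (right), for splicing factors and hnRNPs (red) and all measured probe sets (grey). On the left the red curve crosses 50% at 0.24 and the grey at -0.01; on the right they cross at 0.05 and -0.01.

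Large differences were few. A range of 2-fold or more over the 4 explants was seen for 19 of 156 probe sets (12.2%), against 27.4% of all, and 102 of the 156 varied by under 1.5-fold. The median log2 range was 0.46, against 0.63 for all probe sets. Part of this contrast goes with brightness, since wide ranges were rarer among bright probe sets. In the brightest class 9 of 105 members had a 2-fold range (8.57%, against 13.7% of all). The middle class had 6 of 34 (17.6%, against 24.3%) and the dimmest 4 of 17 (23.5%, against 44.1%). Of the 19, the vegetal explant was the lowest in 16 and the highest in 3. Between the animal cap and the vegetal explant, 11 probe sets were 2-fold or more higher in the cap (7.05%), where all probe sets gave 9.14%. In the other direction 2 were 2-fold or more higher in the vegetal explant (1.28%), where all probe sets gave 11.7%. The cap count was therefore close to the background share, while few members had a large vegetal excess. Both background shares fell with brightness. From the brightest to the dimmest class, 4.21%, 9.30% and 21.7% of all probe sets were 2-fold higher vegetally. Among members these were 1 of 105, 0 of 33 and 1 of 18. In the same order 7.03%, 9.30% and 11.1% of all were 2-fold higher in the cap, and 6, 4 and 1 members. After centring each array on its median, the split was 22 to 1 in place of 11 to 2. That is 14.1% higher in the cap, where all probe sets gave 12.8% under the same centring, and 0.641% higher vegetally, where all gave 8.82%.

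Against the dorsal marginal zone, 12 probe sets were 2-fold or more lower in the vegetal explant (background 7.89%) and 3 higher (background 9.83%). Against the ventral marginal zone the counts were 10 lower (background 7.86%) and 2 higher (background 9.27%). Vegetally, 7 probe sets lay 2-fold or more below all 3 other explants (4.49%, background 5.34%), and 2, lsm4.S and lsm14b.L, lay as far above them (background 6.01%). No probe set was 2-fold above the other 3 explants in the animal cap (background 0.723%), dorsally (0.316%) or ventrally (0.181%).

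**Figure D3:**
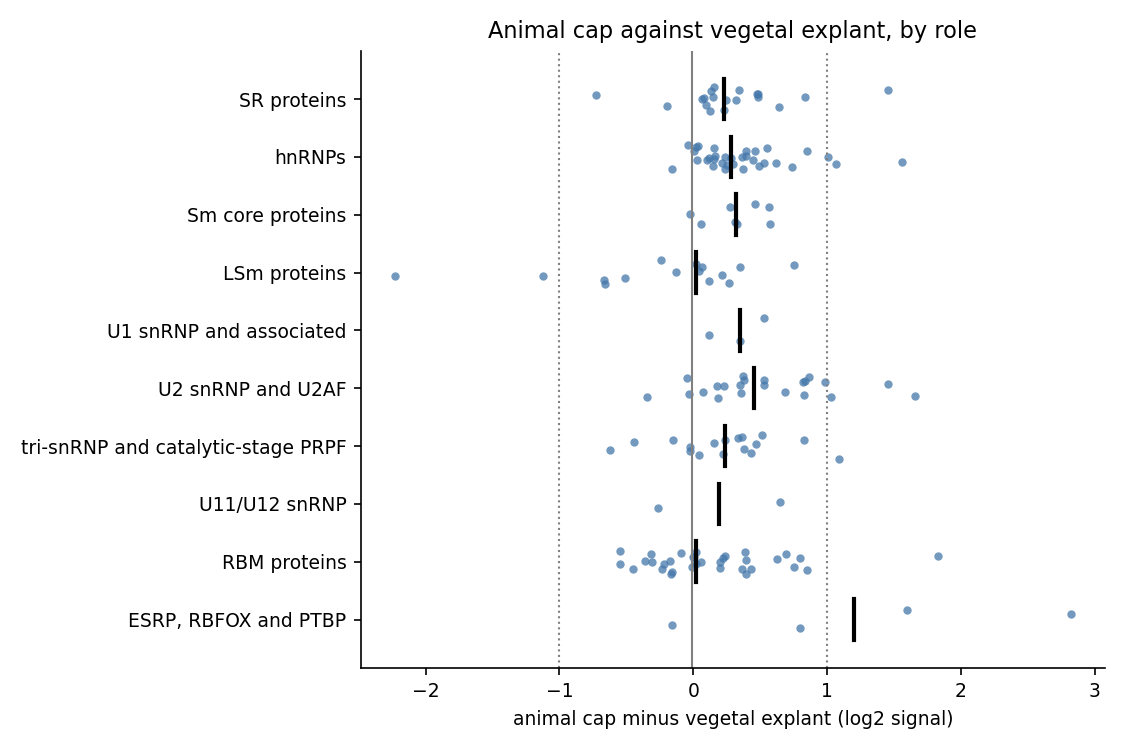
Log2 difference of the animal cap minus the vegetal explant (horizontal axis) for each measured probe set (points), by role (rows). Black bars are the medians of each role, the solid grey line is the median of all probe sets (-0.01) and dotted lines mark 2-fold. Most points of the SR, hnRNP, Sm and U2 rows lie to the right of the grey line, while LSm and RBM points lie on both sides.

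Among the tissue-restricted regulators, esrp1.L had the widest range of all 156 probe sets. It encodes epithelial splicing regulatory protein 1, which in mammals maintains epithelial exon choices. Its signal was 1534 in the animal cap, 778 ventrally, 430 dorsally and 217 in the vegetal explant. The cap was thus 7.07-fold above the vegetal explant. The ventral marginal zone was 1.81-fold above the dorsal, the largest ventral excess among these genes. The ectoderm markers had the same order of explants (18410, 9490, 3032 and 1219), and their part in the esrp1.L difference was not tested. It was the only member 2-fold or more higher in the cap than in the dorsal marginal zone (background 2.25%), and no member was so in the reverse direction (background 3.61%). None differed 2-fold between the cap and the ventral marginal zone (background 1.44% higher in the cap and 3.24% higher ventrally).

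The polypyrimidine tract-binding protein gene ptbp1, whose product represses many alternative exons, was low vegetally in both copies. For ptbp1.S the signals were 2285 in the cap, 1912 dorsally, 2337 ventrally and 754 in the vegetal explant, which lay 2.54-fold below the lowest of the others. For ptbp1.L they were 976, 1078, 1157 and 561 in the same order, 1.74-fold lower in the vegetal explant than in the cap. A second ptbp1.L probe set never exceeded 64.3, and ptbp3.S, for a related protein, stayed between 73.8 and 109. The exon regulator gene rbfox2.S ran otherwise, with 713 in the cap, 804 dorsally, 587 ventrally and 796 in the vegetal explant. Its dorsal signal was 1.37-fold above the ventral one, and its vegetal and dorsal signals were nearly equal.

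**Figure D4:**
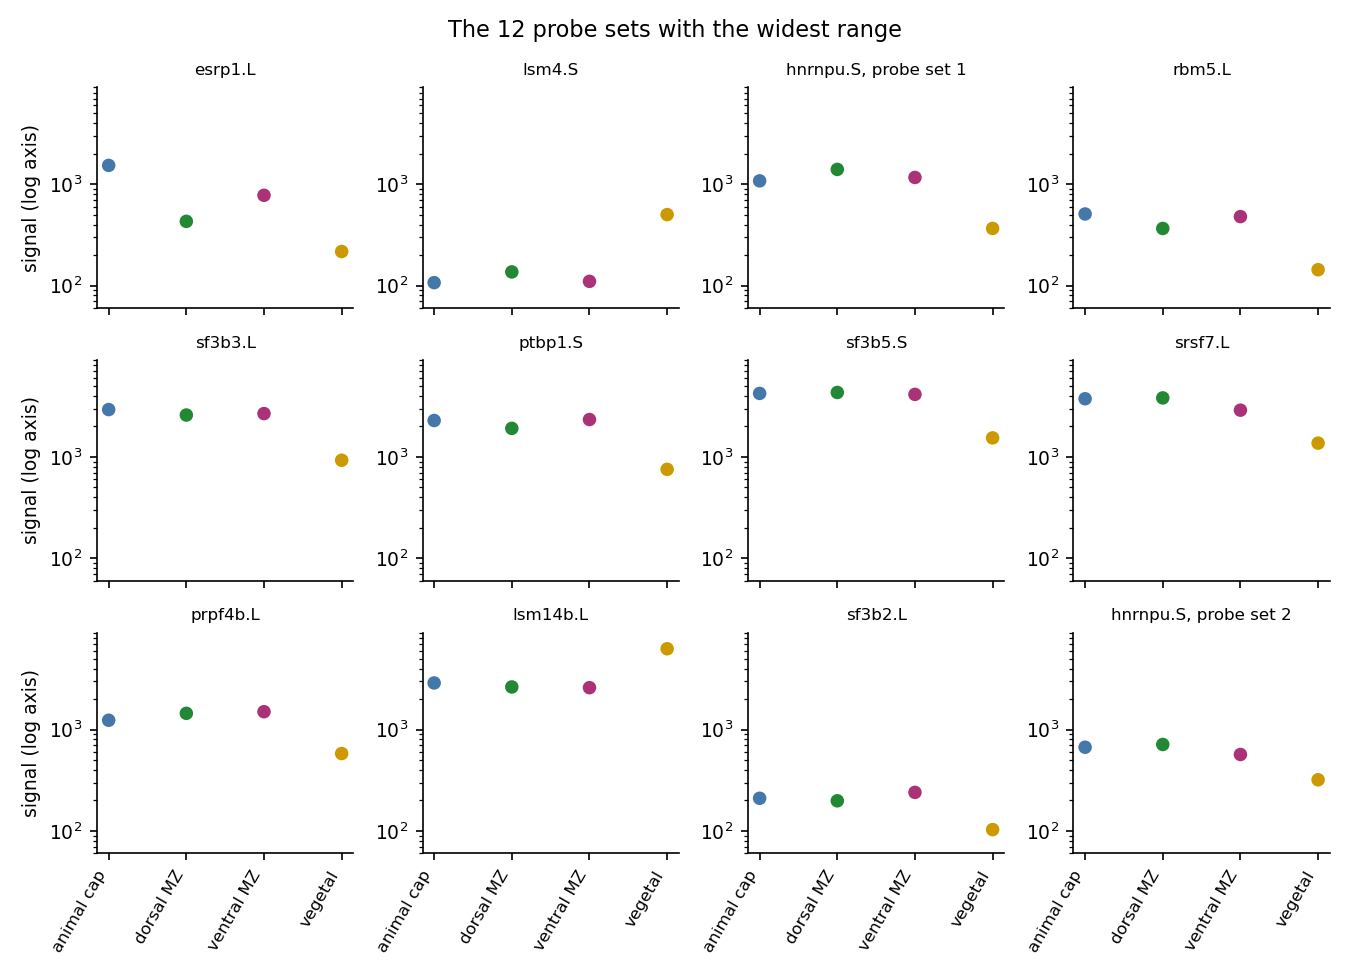
Signals (log axis, same scale in each panel) in the 4 explants for the 12 probe sets with the widest range. One point is 1 array; the vegetal signal is the lowest in 10 panels and the highest for lsm4.S and lsm14b.L. MZ stands for marginal zone.

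Genes of the U2 snRNP and U2AF, which recognise the branch site and the end of the intron, had a median cap minus vegetal difference of 0.45. Of 22 measured probe sets, 19 were higher in the cap (49.3% of all), 3 of them 2-fold or more (9.14% of all). None was 2-fold higher in the vegetal explant (11.7% of all). The counts by role, here and below, were not matched for brightness. In the brightest class 59.37% of all probe sets were higher in the cap and 47.5% were lowest vegetally. Within this group the subunits with SF3B names, which hold the branch site, stood out by count after their values were seen. All 10 measured probe sets with these names (7 symbols) had their lowest signal in the vegetal explant (37.2% of all). Their log2 differences ran from 0.35 to 1.66, with a median of 0.83. The SF3B subunit gene phf5a.L, which the name rule missed, differed less, by 1.05-fold and 1.22-fold between cap and vegetal explant. The 3 SF3A probe sets, for the partner complex, ran from -0.35 to 0.18. For sf3b3.L the signals were 2929 in the cap, 2588 dorsally, 2675 ventrally and 927 in the vegetal explant. The 3 non-vegetal explants lay close together, and the vegetal one was 2.79-fold below the lowest of them.

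The small subunit gene sf3b5.S gave 4229 in the cap, 4321 dorsally, 4136 ventrally and 1540 in the vegetal explant. Its vegetal signal was 2.69-fold below the lowest of the rest, with the other explants again nearly level. The scaffold subunit gene sf3b1.S, a member named here after its values were seen, had 3 probe sets. They differed by 1.76-fold, 1.77-fold and 1.78-fold between cap and vegetal explant. The probe sets at 1.77-fold and 1.78-fold are versions of the same target and may share probes. For sf3b2.L, 1 probe set had 210 in the cap, 198 dorsally, 240 ventrally and 103 in the vegetal explant, and the other differed by 1.82-fold between cap and vegetal explant. Among the genes with SF3B names, the smallest differences were those of sf3b4.S (1.27-fold) and sf3b6.S (1.28-fold). Of the remaining U2 genes, snrpb2.S was the most even, with 5356 in the cap, 5066 dorsally, 5292 ventrally and 5536 in the vegetal explant.

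SR protein genes were mostly even, with a common slight vegetal deficit. Of 19 measured probe sets, 17 had their lowest signal in the vegetal explant (37.2% of all). The cap was higher than the vegetal explant for 17 (49.3% of all), but by 2-fold for only 1 (9.14% of all). The median log2 difference was 0.23. The 1 past 2-fold was srsf7.L, with 3746 in the cap, 3818 dorsally, 2890 ventrally and 1368 in the vegetal explant. Its copy srsf7.S had 12798, 11209, 11541 and 9161, a 1.40-fold difference between cap and vegetal explant. The founding SR gene srsf1.L varied least on one of its probe sets, with 8095 in the cap, 8004 dorsally, 7644 ventrally and 7414 in the vegetal explant. The exception in direction was srsf5a, where srsf5a.L had 243 in the cap against 411 dorsally, 390 ventrally and 401 in the vegetal explant. Its copy srsf5a.S was likewise lowest in the cap, with 2807 there and 3216 in the vegetal explant.

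The hnRNP genes resembled the SR genes. Of 33 measured probe sets, 31 were higher in the cap than in the vegetal explant (49.3% of all). The vegetal signal was the lowest for 27 (37.2% of all). The median log2 difference was 0.28, with 3 past 2-fold (9.14% of all). Both copies of hnrnpu, which encodes a nuclear scaffold-associated hnRNP, contributed 5 probe sets that were all lowest vegetally but differed in size. On the probe set with the widest range, hnrnpu.S had 1080 in the cap, 1400 dorsally, 1167 ventrally and 367 in the vegetal explant. On the next it had 669, 712, 568 and 319 in the same order. On the most even it had 6155, 6649, 6005 and 5165, a cap to vegetal difference of only 1.19-fold against 2.94-fold on the first. The size of the hnrnpu.S difference thus depended on the probe set, while its direction did not.

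The remaining hnRNP probe set past 2-fold, of hnrnpr.S, lay just over the line at 2.01-fold, and another for the same gene gave 1.29-fold. The most even hnRNP was hnrnpm.L, with 6306 in the cap, 6344 dorsally, 6073 ventrally and 5699 in the vegetal explant. The 7 probe sets of hnrnpa1, a very abundant hnRNP with close relatives that can share probes, ranged from -0.16 to 0.46.

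The core of the snRNPs varied little. Sm proteins form the ring on the U1, U2, U4 and U5 RNAs. Of their 8 probe sets, 7 were lowest in the vegetal explant (37.2% of all). None had a 2-fold range over the explants (27.4% of all), and the median cap minus vegetal difference was 0.32. The widest was snrpb.L, with 2823 in the cap, 3042 dorsally, 2397 ventrally and 1912 in the vegetal explant, and the narrowest snrpd3.S, with 960, 975, 983 and 925. All 3 U1 protein probe sets were lowest vegetally (37.2% of all). The widest, snrnp70.L, had 2291 in the cap, 2043 dorsally, 2151 ventrally and 1593 in the vegetal explant. At the other end snrpa.S had 3555, 3626, 3874 and 3272, so that even here the explants spanned only a small fraction of the signal.

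In the tri-snRNP and later-acting PRPF group, 12 of 17 probe sets were higher in the cap than in the vegetal explant (49.3% of all). Of these, 1 was 2-fold higher (9.14% of all), and the group median was 0.24. The vegetal signal was the lowest for 8 (37.2% of all) and the highest for 2 (39.1% of all). The differences between cap and vegetal explant ran from -0.62 to 1.09. The 1 past 2-fold was a probe set of prpf4b.L. The gene encodes a kinase that phosphorylates tri-snRNP proteins and gave 1235 in the cap, 1445 dorsally, 1500 ventrally and 580 in the vegetal explant. A second probe set of the same symbol, with a log2 difference of -0.15, and prpf4b.S, with 0.24, did not share that difference. The most even of the group was prpf38a.S, with 2266 in the cap, 2415 dorsally, 2246 ventrally and 2305 in the vegetal explant. The U5 genes prpf8.S and snrnp200.L, named after their values were seen, were 2-fold or more lower in the vegetal explant than dorsally. Their dorsal and vegetal signals were 701 against 332 for prpf8.S and 378 against 178 for snrnp200.L. Against the cap the differences were smaller, 1.77-fold for prpf8.S and 1.35-fold for snrnp200.L. The U5 genes prpf6.L, snrnp40.L and snrnp40.S were also lower vegetally than dorsally, by 1.41-fold, 1.34-fold and 1.05-fold. Outside the name rule, the U5 genes eftud2.S and txnl4a.S were nearly level. Their dorsal and vegetal signals were 496 against 493 for eftud2.S and 1630 against 1538 for txnl4a.S. A deficit of 2-fold was thus not shared across the U5 genes. The 2 probe sets for the U11/U12 snRNP, which serves a rare class of introns, disagreed. For snrnp35.L the signals were 642 in the cap and 409 in the vegetal explant, and for snrnp48.L 463 and 556.

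The LSm genes did not share the vegetal deficit, with 8 of 15 probe sets higher in the cap (49.3% of all) and 7 lower. Their median was 0.02 (0.23 after centring on array medians, where all probe sets had 0.21). LSm2 to LSm8 form the ring on U6 RNA, and several of them also serve in the cytoplasmic decapping ring. The largest vegetal excess among all members was that of lsm4.S, with 107 in the cap, 137 dorsally, 110 ventrally and 502 in the vegetal explant. Its vegetal signal was 4.69-fold above that of the cap, while the other 3 explants lay close together and under the level of 147 required for measurement. Ring partners did not share this size of difference. For the more even probe set of lsm2.L the signals were 563 in the cap, 524 dorsally, 568 ventrally and 519 in the vegetal explant. For lsm5.L and lsm6.S, named after their values were seen, the vegetal explant was 1.59-fold and 1.58-fold above the cap, and lsm3.S was 1.68-fold higher in the cap.

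Of the 15 LSm probe sets, 6 were highest in the vegetal explant, where all probe sets gave 39.1%. Besides lsm4.S the one past 2-fold over the cap was that of lsm14b.L, where all gave 11.7%. Both LSm counts were thus near the share of all probe sets. The product of lsm14b belongs to a family of cytoplasmic proteins that hold mRNAs in translationally silent particles and is not a spliceosome component. For lsm14b.L the signals were 2882 in the cap, 2632 dorsally, 2589 ventrally and 6265 in the vegetal explant. For lsm14b.S they were 1152, 1017, 1015 and 1643. Both copies were thus highest vegetally and level elsewhere, by 2.17-fold and 1.43-fold over the cap. For lsm14b.L the difference was just under 2-fold (log2 -0.91) once arrays were centred on their medians. Germ plasm markers were also high on the vegetal array (20780 against at most 597), and their part in the lsm4.S and lsm14b differences was not tested.

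RBM genes, a set joined by an RNA-recognition motif and a name rather than by one function, showed no common direction between cap and vegetal explant. Of 33 measured probe sets, 19 were higher in the cap and 14 in the vegetal explant, and the median was 0.02 (again 0.23 after centring). The vegetal signal was the lowest for 16 and the highest for 10, where all probe sets gave 37.2% and 39.1%. Against the marginal zones the vegetal explant was lower, with medians of -0.25 (dorsal) and -0.15 (ventral). All probe sets had 0.02 in both comparisons. The widest difference was that of 1 probe set of rbm5.L, a gene whose human relative regulates exons of cell death genes. Its signals were 509 in the cap, 366 dorsally, 480 ventrally and 144 in the vegetal explant, 3.55-fold between cap and vegetal explant. The second rbm5.L probe set had 3038, 3208, 2929 and 2258, only 1.35-fold, and rbm5.S had 2342, 3299, 3032 and 2038, or 1.15-fold. All 3 were lowest vegetally, and the gap in size between the first and the others was the widest between probe sets of 1 gene or its copies.

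Some RBM genes ran the other way. All 3 probe sets of rbm38.L, whose product binds and stabilises mRNAs in mammals, were highest in the vegetal explant. On one of them its signals were 467 in the cap, 298 dorsally, 441 ventrally and 598 in the vegetal explant. The muscle and heart regulator rbm24.S had 209 in the cap, 126 dorsally, 188 ventrally and 234 in the vegetal explant. The most even RBM probe set was one for rbm42.L, with 363 in the cap, 393 dorsally, 398 ventrally and 359 in the vegetal explant.

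Along the dorsal-ventral axis these genes were nearly flat. None of 154 probe sets was 2-fold higher dorsally (background 1.38%) or ventrally (background 1.17%). The median absolute log2 difference was 0.12, against 0.17 for all probe sets. Such differences were rare among all bright probe sets. In the brightest class, with 98 of the 154, only 0.185% of all were 2-fold higher dorsally and 0.445% ventrally. These shares were 0.815% each in the middle class (40 members), and 3.15% and 2.26% in the dimmest (16 members). The largest dorsal excess was that of the U4/U6 gene prpf3.S, with 329 dorsally and 208 ventrally on 1 probe set, 1.58-fold. The other prpf3.S probe set differed by 1.02-fold. The U5 gene snrnp40.L followed with 3242 against 2348, 1.38-fold, and then rbfox2.S. On the ventral side esrp1.L was followed by rbm24.S (1.49-fold) and the rbm38.L probe set above (1.48-fold), whose other probe sets gave 1.01-fold and 1.03-fold. The median of 0.05 turned to -0.16 with arrays scaled to the hybridisation controls, a setting that moved the median of all probe sets to -0.22. No probe set stood 2-fold above both poles in both marginal zones (background 0.384%) or below both (background 0.0226%).

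Probe sets for the same gene and the L and S copies gave a measure of how far a difference depended on the probe set or copy. They were read from the same arrays, so their gaps hold no error of dissection, RNA or array. The 2 copies are also separate genes that may truly differ. Array-wide, the standard deviation of the cap minus vegetal difference between probe sets of a gene was 0.83 (675 genes). Over 58 pairs of probe sets with the same symbol, the root mean square gap between their cap minus vegetal differences was 0.46 on the log2 scale, and 51 pairs had the same sign. Of 9 such pairs with a member past 2-fold, 1 had both past 2-fold the same way, and no pair was past 2-fold in opposite directions. The median gap over these pairs was 0.22, and a few wide pairs raised the root mean square. A vegetal deficit of the median size, 0.24, is thus about as large as the typical gap over these pairs. Some of the pairs, such as those of srsf5.S, are versions of the same target and may share probes. Their median gap may therefore understate how far a difference depends on the probe set. Between copies, averaged per symbol, 18 of 20 genes had the same sign, with a root mean square gap of 0.51. The widest gaps were those of srsf7 (1.45 for L and 0.48 for S), rbm5 (1.13 and 0.20) and ptbp1 (0.80 and 1.60). The pairs with opposite signs were hnrnpdl (0.74 and -0.04) and snrpb2 (0.58 and -0.05), in which 1 copy lay close to 0.

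**Figure D5:**
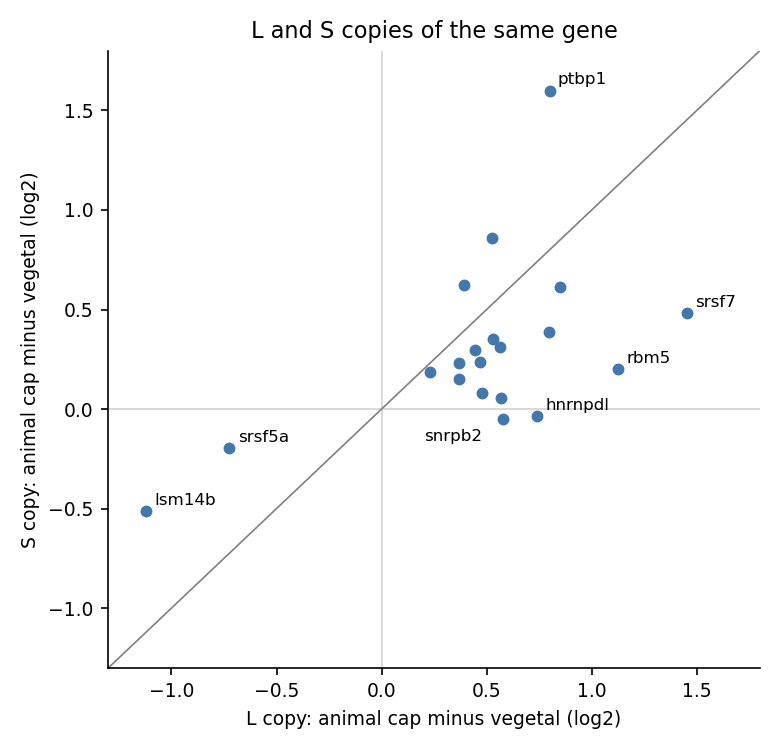
Log2 difference of the animal cap minus the vegetal explant for the L copy (horizontal axis) and the S copy (vertical axis) of 20 genes, each the mean of its measured probe sets; the diagonal marks equality. Of the 20 genes, 16 lie to the upper right of 0, and lsm14b and srsf5a to the lower left.

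Other genes of the splicing machinery, from a separate list of helicases, Prp19 complex, exon junction, SMN complex, SR-related and regulator genes, gave similar values. Of 128 measured probe sets, 97 were higher in the cap than in the vegetal explant (75.8%, against 49.3% of all), with a median log2 difference of 0.19. The share of all was not matched for brightness here either. In the cap 10 were 2-fold or more higher (7.81%, background 9.14%), and in the vegetal explant 3 (2.34%, background 11.7%). The largest cap excesses were those of single probe sets of the nuclear matrix gene matr3.S (1129 against 313), the RNA-binding regulator gene tial1.S (578 against 175) and the RNA export helicase gene ddx39a.L (223 against 84.1). The size for matr3.S depended on the probe set, since the other probe sets of that symbol gave 2573 against 2474 and 200.2 against 113. For the copy tial1.L the 3 measured probe sets disagreed in direction, with 2013 against 1249, 645 against 647 and 295 against 438. The 3 with a vegetal excess of 2-fold or more were rbpms2.S (866 against 258), rbpms2.L (1281 against 544) and bud31.L (1925 against 819). Another bud31 probe set, whose symbol names no copy, gave 1977 against 1850. The classes differed. The helicases had the highest median (0.56, with 12 of 13 higher in the cap), and the SMN complex, which assembles Sm rings, had -0.03 with 3 of 6. The early recognition genes had 0.03 with 8 of 15. None of the 128 measured along the dorsal-ventral axis differed 2-fold.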

How the data were processed

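Biotin-labelled material from 100 ng of total RNA per explant was hybridised to 1 array each, per the labels' protocols. The authors deposited linear intensity signals for 15611 probe sets; the summarisation and scaling software is not given in the sources used here. The mean without the lowest and highest 2% was 500.1 on each array, which was read as a common scaling by the authors, and no further scaling was applied. Array medians were 137 to 158. The number of arrays limits the precision. The 120 control probe sets were left out. Members were named from the platform annotation, and all 170 matched the RefSeq gene table by gene ID. A further 3 probe sets that list both copies of a matching gene were not named. Floor, filter and the 2-fold rule are as given with the results. Genes named in the text were those with the widest and narrowest ranges, overall and by role, the largest differences each way, the probe set pairs farthest apart, and every ESRP, RBFOX and PTBP probe set. Of the genes outside that rule, sf3b1.S, sf3b4.S, sf3b6.S, phf5a.L, hnrnpr.S, hnrnpa1, hnrnpdl, prpf8.S, snrnp200.L, prpf6.L, snrnp40.S, eftud2.S, txnl4a.S, lsm3.S, lsm5.L, lsm6.S, srsf7.S, srsf5a.S, prpf4b.S, lsm14b.S and tial1.L were named after their values were seen. The members and lists were chosen with earlier results of these data known. The comparison code was tested on simulated data. Alternatives covered floor, pseudocount, filter, scaling, probe set type, averaging by gene and the size rule. Work was done in Python 3.11.15 with numpy 2.4.6 and pandas 2.3.3.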

Additional observations from a re-analysis of the deposited data

How the results depend on the processing

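Without replicates the limits are those of single arrays, and many differences are smaller than the gap between probe sets of 1 gene. The number of members lowest in the vegetal explant was a count added after the data were seen. It was between 100 (quantile normalization) and 126 (arrays centred on their medians) of 156. Without the filter it was 112 of 170, with the filter at the 75th percentile 86 of 126, and without probe sets of cross-hybridising types 86 of 129. Shares of all probe sets under these settings are not given here. Centring also lowered the vegetal signals of all probe sets, with a vegetal minus dorsal median of -0.11 in place of 0.02. The count of 126 is therefore not comparable with the 37.2% of all in the main setting. Centring on the medians gave 22 members higher in the cap than in the vegetal explant in place of 11, 1 higher vegetally in place of 2, a median of 0.44 in place of 0.24, 1 in place of 0 above the other 3 explants in the cap and 1 in place of 2 in the vegetal explant. With 1 value per symbol, 6 genes were higher in the cap and 4 lay below the other 3 explants in the vegetal explant, in place of 11 and 7. The share higher in the cap was 5.22% there, against 9.08% of all. The 11 probe sets belong to 10 symbols, and for 4 of these the mean with less different probe sets fell under 2-fold (log2 0.94 for sf3b2.L, 0.86 for hnrnpu.S, 0.69 for hnrnpr.S and 0.47 for prpf4b.L). With the filter at the 75th percentile 1 member was higher vegetally than in the cap and 1 above the other 3 explants vegetally, since lsm4.S is too dim to enter. Scaling to the hybridisation controls gave 1 member higher ventrally than dorsally in place of 0 and a dorsal minus ventral median of -0.16. A 1.5-fold rule, looser by construction, gave 31 members higher in the cap (19.9%, against 17.9% of all) and 6 higher vegetally (3.85%, against 21.3%). It also gave 1 higher dorsally and 1 ventrally, 54 with that range and 1 above both poles. Further, 1 lay above the other 3 explants in the cap and 19 below them in the vegetal explant. For these later counts no share of all probe sets under the 1.5-fold rule is given, so they show no excess over background. The other 128 recomputed counts and medians stayed within 1.5 times or 0.1 (log2) of the main value. No paired analysis was possible because there is 1 array per explant.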
